A study of Mus musculus with 2 samples.

Results

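The CD150-high CD48-high cells were 155 of the 3986 LSK cells that passed the cell filter and carried antibody tags (3.89%). LSK cells (lineage-negative, Sca-1-positive, c-Kit-positive) are the bone marrow fraction that holds stem cells and early multipotent progenitors. They came from C57BL/6JRj mice, 4 of them young (3 to 5 months) and 4 old (22 to 28 months), and no genetic change or treatment is named for either age. Each age gave 1 library of CITE-seq, in which a droplet yields both the messenger RNA of a cell and counts of DNA tags on antibodies, here against CD150, CD48 and CLCA3A1. The members were chosen on those tags within each library: CD150 tags at or above the 75th percentile and CD48 tags above the 50th. This gave 105 of 1497 cells of the library with barcode suffix 1 (7.01%, 95% exact binomial interval 5.77 to 8.43) and 50 of 2489 cells of the library with suffix 2 (2.01%, 1.49 to 2.64), and the libraries shared 0 barcodes. Which suffix belongs to which age is not given in the sources used here, so values are shown per suffix, the ages are not compared, and with 1 library for each suffix no p-value can be given.

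CD150 (the product of Slamf1) and CD48 are surface receptors of the SLAM family, which are used together to divide mouse LSK cells. Cells with CD150 but no CD48 hold the long-term stem cells. Cells with CD48 but no CD150 hold progenitors biased to granulocytes, monocytes and lymphocytes, and cells with both are known as MPP2, a multipotent progenitor with a bias to megakaryocytes and red cells. The CD150-high CD48-high cells are therefore set against 2 other gates of the same libraries. The CD150-high CD48-low gate (CD48 tags at or under the 25th percentile) held 172 and 383 cells, and the CD150-low CD48-high gate (CD150 tags at or under the 50th percentile) held 444 and 979.

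The same percentiles stood at different tag counts in the libraries. CD150-high began at 40 tags in suffix 1 and at 407 in suffix 2, while CD48-high began above 462 and above 135. The CD150-high CD48-high cells thus had a median of 126 CD150 and 765 CD48 tags in suffix 1, against 671 and 248 in suffix 2, and the 2 sets are not the same in absolute tag level. They were also the deepest cells: their median of 25293 and 25936 UMIs per cell exceeded that of CD150-high CD48-low cells (12917 and 13477) and of CD150-low CD48-high cells (18145 and 18042). Scrublet, which scores each cell against simulated pairs of cells, called 1 of the 105 cells a doublet in suffix 1 (0.952%) but 16 of the 50 in suffix 2 (32%, 19.5 to 46.7). The other gates held 0 (CD150-high CD48-low, both suffixes) and 2 and 3 such calls (CD150-low CD48-high). Values of suffix 2 are therefore also given without its doublet calls, for the remaining 34 cells, where the value moved by more than 1.5-fold. Whether the called cells held RNA of 2 cells was not tested.

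**Figure D1:**
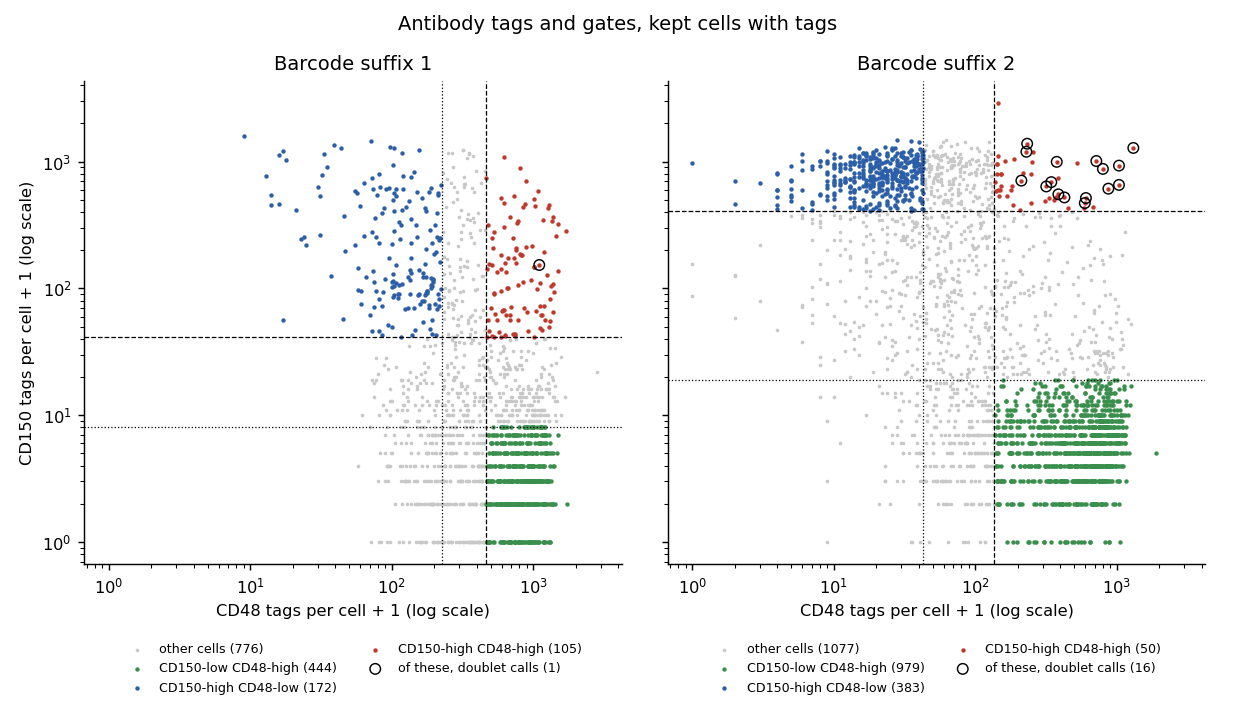
CD48 tags (horizontal) and CD150 tags (vertical) of each kept cell, both plus 1 on log scales, for suffix 1 (left) and suffix 2 (right); colours mark the gates with their cell numbers, black rings the doublet calls among CD150-high CD48-high cells, dashed lines the cuts of the high gates and dotted lines those of the low gates. The 105 and 50 red cells lie at different tag counts in the 2 libraries, and 16 of the 50 in suffix 2 are ringed.

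All 4 marker genes that go with the MPP2 label (Slamf1, Cd48, Gata1 and Itga2b) were detected in both suffixes. Levels are given as CPM, the UMIs of a gene per 1000000 UMIs summed over the cells of a gate. Such a sum does not tell more cells with the gene from more RNA per cell. Slamf1 stood at 6.51 CPM in suffix 1 and 29.9 in suffix 2, between the CD150-high CD48-low cells (16.9 and 64.2) and the CD150-low CD48-high cells (0 and 0.246). Cd48 stood at 74.5 and 39.1 CPM, against 0.888 and 1.52 in CD150-high CD48-low cells and 123 and 176 in CD150-low CD48-high cells. Without the doublet calls, Cd48 was at 9.29 CPM in suffix 2, still above the CD150-high CD48-low cells but far below the CD150-low CD48-high ones. After each cell was thinned to 8000 UMIs, a Cd48 UMI was present in 33.3% of CD150-high CD48-high cells in suffix 1 and in 10% in suffix 2. The shares were 0.625% and 1.6% of the CD150-high CD48-low cells, which should lack it, and 56.7% and 61.6% of the CD150-low CD48-high cells. Slamf1 was present in 6.67% and 24% of the thinned cells, against 0% and 0.31% of the CD150-low CD48-high and 12.5% and 38.5% of the CD150-high CD48-low cells. The gates were cut on these 2 proteins, so this order lends the label no support. All 155 cells had enough UMIs for the thinning, whereas 12 and 9 CD150-high CD48-low cells and 1 and 11 CD150-low CD48-high cells were too shallow.

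Itga2b, which encodes the megakaryocyte integrin CD41, was above both other gates, in suffix 2 largely through 2 cells. It stood at 45.2 CPM in suffix 1 and 69.1 in suffix 2, against 20.4 and 18 CPM in CD150-high CD48-low cells and 5.26 and 20.1 in CD150-low CD48-high cells. The ratio to CD150-high CD48-low cells was 2.21 (95% interval 1.57 to 3.17) and 3.83 (2.84 to 5.16), and the ratio to CD150-low CD48-high cells was 8.59 (6.11 to 12.2) and 3.43 (2.7 to 4.32). Intervals of ratios are exact for the counts of UMIs and cover counting error only, since the cells of a library are not replicates. Without the doublet calls Itga2b was at 103 CPM in suffix 2. In that library 2 cells held 28 and 25 of the 90 Itga2b UMIs. The level was 48.7 CPM without the first and 30 CPM without both, and without both it was no longer past 1.5-fold against either gate, with log2 ratios (10 CPM added to both sides) of 0.51 and 0.41. In suffix 1 the 2 top cells held 17 of 125 UMIs, and 40.3 CPM remained without them.

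Gata1, the transcription factor that drives megakaryocyte and red cell genes, was found in few of the cells. It was detected in 13 of 105 cells in suffix 1 and in 5 of 50 in suffix 2, with 29 and 8 UMIs in all (10.5 and 6.14 CPM, and 10.6 CPM in suffix 2 without the doublet calls). CD150-high CD48-low cells held 0 and 2 Gata1 UMIs, and CD150-low CD48-high cells 1 and 10. The level in suffix 1 was at least 7.87-fold higher than in CD150-high CD48-low cells, taking 3 UMIs as the limit for the 0 found there. In suffix 2 the ratio to that gate was 16.2 (3.23 to 156), and the ratio to CD150-low CD48-high cells was 12.5 (4.28 to 35.1). In thinned cells the share with a Gata1 UMI was 3.81% and 6%, against 0% and 0.267% of CD150-high CD48-low cells and 0% and 0.413% of CD150-low CD48-high cells, where 0 allows a share of up to 1.88% and 0.677%. The Gata1 of suffix 1 rested on few cells as well: 9 of its 29 UMIs came from 1 cell, and 7.32 CPM remained without it.

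The gate took up most of the Gata1-positive cells in one library and few of them in the other. In suffix 1 it held 13 of the 21 cells with a Gata1 UMI (61.9%, 38.4 to 81.9) while being 7.01% of the cells. In suffix 2 it held 5 of 65 (7.69%, 2.54 to 17) while being 2.01% of the cells. There the largest Gata1 counts lay outside the gate, in the third quartile of the CD150 tag (median of 49.5 tags among its CD48-high cells), with 18, 33 and 35 UMIs in the second to the highest quartile of the CD48 tag, against 8 and 0 UMIs in the 2 quartiles that form the gate. In suffix 1 the third CD150 quartile held 0, 0 and 7 Gata1 UMIs in the same CD48 quartiles, and the gate 18 and 11. Itga2b in suffix 2 stood at 91.2 CPM in the gate's lower CD48 quartile, against 68.8 CPM in the same CD48 quartile of the third CD150 quartile. This order turned on few cells: without the top cell the level in the gate was 63.2 CPM, and without the top 2 cells 37 CPM, against 63.9 and 61.5 CPM when the same was done outside it. Its level was 13.5 CPM in the gate's higher CD48 quartile, which held 10 cells, 8 of them doublet calls.

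**Figure D2:**
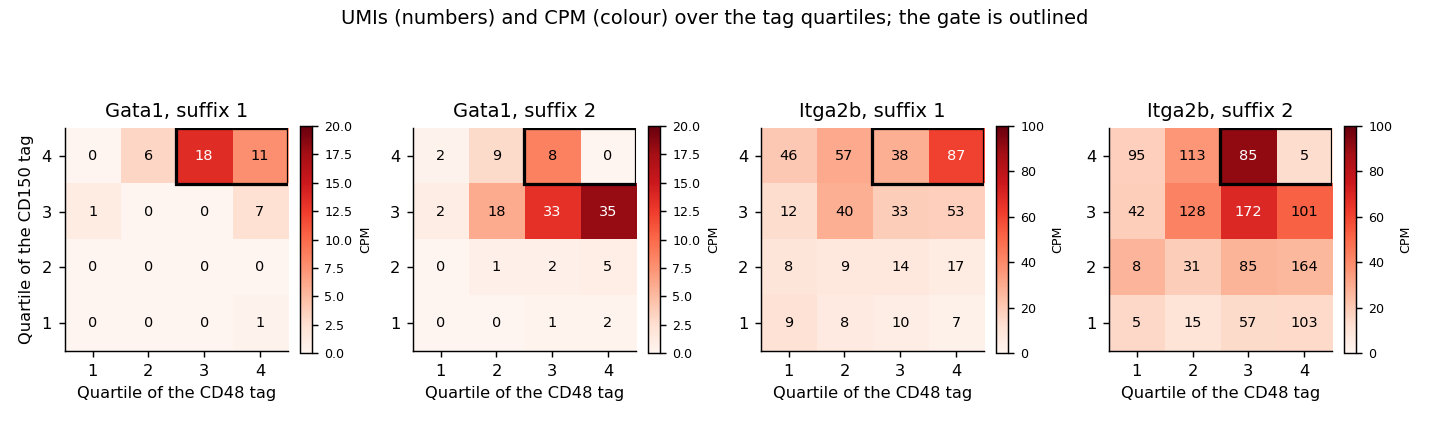
UMIs (printed numbers) and CPM (colour) of Gata1 (left pair) and Itga2b (right pair) over quartiles of the CD48 tag (horizontal) and of the CD150 tag (vertical) in each suffix; the CD150-high CD48-high gate is outlined. In suffix 1 the highest Gata1 levels lie inside the outline, with 18 and 11 UMIs, and in suffix 2 below it, with 33 and 35.

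Single cells with a strong lineage program accounted for several of the highest values. Car1, a carbonic anhydrase of red cell progenitors, had 259 UMIs in suffix 1, of which 145 came from one cell and 113 from another, and 0 in suffix 2. The first of these cells also held 7 UMIs of Klf1 (the red cell transcription factor), 9 of the blood group gene Rhd, 6 of the red cell membrane gene Ermap and 4 of the erythropoietin receptor gene Epor. It had 325 CD150 and 765 CD48 tags and was not called a doublet. Pf4 (platelet factor 4, stored in platelet granules) had 537 UMIs in suffix 2, of which 275 and 225 came from 2 cells (412 CPM, and 695 without the doublet calls). These held 25 and 28 UMIs of Itga2b, 11 and 6 of Vwf and 3 and 0 of Gata1, and neither was called a doublet. Ms4a2, a mast cell and basophil receptor chain, had 13 UMIs in suffix 1, all from 1 cell. These 3 levels thus rest on 1 or 2 cells each.

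Against CD150-high CD48-low cells, the CD150-high CD48-high cells were higher in cell cycle genes and some early lymphoid genes and lower in some stem cell and interferon-induced genes. A gene entered the comparison if 10% or more of the cells in one of the 2 gates held a UMI of it, in each suffix, and was counted where its level, with 10 CPM added to both sides, lay past 1.5-fold in the same direction in both suffixes. Of 9893 genes compared, 452 were higher (4.57%) and 148 lower (1.5%), and 0 were past 1.5-fold in opposite directions. Of the 452, 214 met the detection filter in a suffix only through the CD150-high CD48-high cells, and of the 148, 35 only through the other gate. Such genes had to differ in detection, and the former gate is the deeper, so their counts describe the comparison and lend it no support. The median log2 ratio over all genes compared was 0.035 and 0.076. Without the doublet calls 398 genes were higher and 129 lower, and 375 and 115 of these were among the first counts. All log2 ratios below have 10 CPM added to both sides, which draws the values of low genes towards 0.

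All 20 genes of the S phase list, which serve DNA replication, were higher than in CD150-high CD48-low cells, with a median log2 ratio of 1.32 and 1.8, and so were 19 of 20 genes of the list for G2 and mitosis (1.4 and 2.22). In a suffix, 9 of the 20 and all 19 met the detection filter only through the CD150-high CD48-high cells. Summed over all genes of the mitosis list, whatever the filter, the level was 1773 and 1118 CPM against 439 and 45.9. Mki67, which marks cycling cells, stood at 234 and 92.1 CPM, against 37.7 and 2.66 CPM in CD150-high CD48-low cells. Top2a, which untangles replicated DNA, stood at 366 and 200.3 CPM against 66.2 and 8.92, and the helicase subunit gene Mcm5 at 171 and 120 CPM against 49.7 and 12. Hmmr was the exception of the mitosis list, with log2 ratios of 0.55 and 1.97. The direction of the mitosis list depended on the choice of cells. With tags divided by unmapped tags (60 cells in suffix 1) its median log2 ratio in suffix 1 was -0.74 and the log2 ratio of Mki67 was -0.75, and with a stricter cell filter (under 5% of UMIs mitochondrial and more than 2500 genes, 11 and 7 cells) the median was -0.57 and -0.65. Of the G1 regulators, Cdk6, whose kinase admits cells to the cycle, stood at 394 and 328 CPM against 108 and 81.3, and E2f1, Rbl1 and Cdk6 were the 3 of 14 that were higher. Cdkn1c, the inhibitor p57 that marks quiescent stem cells, was the 1 that was lower, at 19.2 and 50.6 CPM against 56.8 and 102. Read per cell, 44.8% (35 to 54.8) and 34% (21.2 to 48.8) of the CD150-high CD48-high cells had a share of UMIs on the mitosis list above the 75th percentile of their library, against 5.23% and 0.522% of the CD150-high CD48-low cells and 32.2% and 43.9% of the CD150-low CD48-high cells. UMIs per cell moved with these lists within the gate (Spearman's rho with the mitosis share 0.51 and 0.58), and the part of depth in them was not tested.

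Some stem cell genes went the other way. Of the 18 stem cell genes, 9 were lower (8 without the doublet calls) and 0 higher, with a median log2 ratio of -0.82 and -0.61. Procr, which encodes the stem cell receptor EPCR, stood at 53.2 and 128 CPM against 115 and 246. Among cells at or under the median mitosis share (27 and 21 cells) its log2 ratio in suffix 1 turned to 0.11. Mllt3, a regulator that sustains stem cells, stood at 60.7 and 163 CPM against 200.2 and 283, and Mecom, a transcription factor needed to keep stem cells, at 66.5 and 88.2 against 121 and 166. Pdzk1ip1 was the furthest below, at 75.9 and 139 CPM against 214 and 346. Hlf and Meis1, also transcription factors of stem cells, did not pass 1.5-fold, with log2 ratios of -0.2 and -0.13 for Hlf and -0.17 and 0.1 for Meis1. Outside the lists, Slfn2 (-1.44 and -1.43), Tinagl1 (-1.33 and -1.23) and Nupr1 (-1.53 and -1.08) were among the 12 furthest below.

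Of 7 granulocyte and monocyte genes compared, 2 were higher than in CD150-high CD48-low cells (1 without the doublet calls), with a median log2 ratio of 0.62 and 0.41. Of 11 lymphoid genes, 6 were higher (4 without the doublet calls), with a median of 0.89 and 0.93. Both of the former and 5 of the 6 met the detection filter in a suffix only through the CD150-high CD48-high cells. Several of the genes furthest above moved with the doublet calls. Plac8, a gene of myeloid and lymphoid progenitors, stood at 521 and 404 CPM against 71 and 40.1, and at 98.2 CPM in suffix 2 without the doublet calls. Mpo, the myeloperoxidase of granulocyte precursors, stood at 56.8 and 91.3 CPM against 0.888 and 1.71, and at 33.2 without them. Flt3, the cytokine receptor of lymphoid-primed progenitors, stood at 95.8 and 59.1 CPM against 13.3 and 2.09, and at 27.9 without them. Each of the 3 stayed past 1.5-fold in both suffixes without the doublet calls. With tags divided by unmapped tags (7 cells in suffix 2) the log2 ratios in suffix 2 turned to -0.403 for Flt3 and -0.23 for Dntt. Dntt, the polymerase that adds bases to antigen receptor genes, stood at 84.6 and 31.5 CPM against 1.33 and 1.52. In suffix 2, 26 of its 41 UMIs came from 1 cell, and at 5.31 CPM without the doublet calls it was no longer past 1.5-fold. The same held for Ighm, BC035044 and Wfdc17. Mpo also rested on few cells in suffix 2, where 21 of its 26 UMIs in the gate's lower CD48 quartile came from 1 cell.

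Some interferon-induced genes were lower. The interferon-induced and MHC class II lists were drawn up after values had been seen, so their counts describe a pattern and lend it no further weight. Of 19 interferon-induced genes compared, 0 were higher, 12 did not pass 1.5-fold and 7 were lower. The 7 included the guanylate-binding protein genes Gbp2, Gbp4, Gbp6, Gbp7 and Gbp9. Iigp1, an immunity-related GTPase, stood at 37.2 and 68.3 CPM against 92.4 and 159, and Ifit1, which binds foreign RNA, at 22.4 and 14.6 against 65.3 and 56. Isg15 did not pass 1.5-fold, at 61.1 and 59.1 CPM (31.8 in suffix 2 without the doublet calls) against 63.9 and 58.1. Of 6 MHC class II genes compared, which serve antigen presentation, 1 was lower (Cd74), with a median log2 ratio of -0.81 and -0.17. Against CD150-low CD48-high cells 0 of 17 interferon-induced genes passed 1.5-fold in both suffixes. The list of MYC and ribosome production had a median log2 ratio of 0.44 and 0.52 to CD150-high CD48-low cells. Of its 16 genes compared, Nop56 and Pa2g4 were higher (1 of the 2 without the doublet calls), Mycn was lower, and 13 did not pass 1.5-fold.

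**Figure D3:**
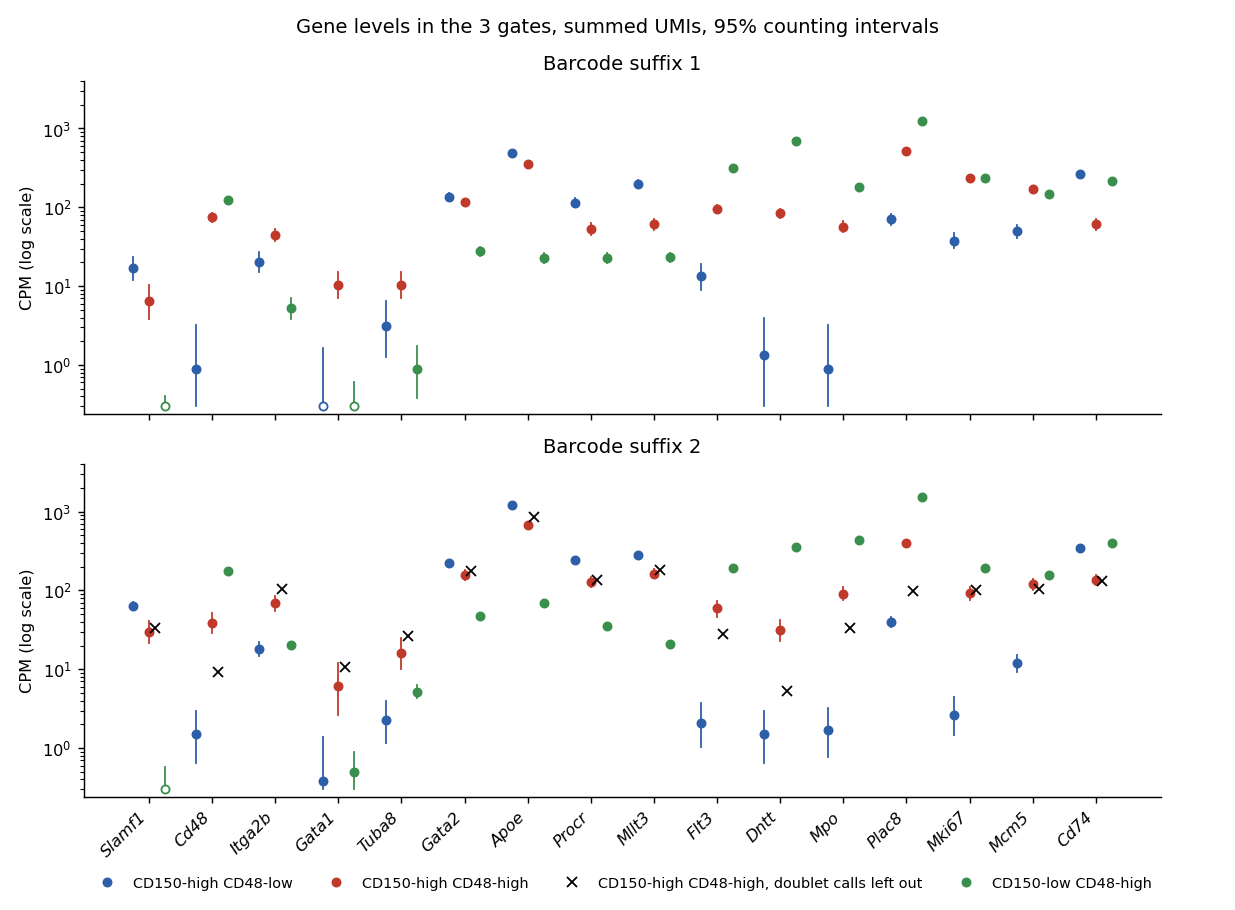
CPM (log scale) of 16 genes in the 3 gates in suffix 1 (top) and suffix 2 (bottom); bars are 95% exact Poisson intervals for counting error, open points lie under the axis floor, and crosses give CD150-high CD48-high cells of suffix 2 without doublet calls. Itga2b, Gata1 and Tuba8 are highest in the CD150-high CD48-high cells, Cd74 is lowest, and most other genes lie between the 2 other gates.

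Against CD150-low CD48-high cells, the CD150-high CD48-high cells were higher in most megakaryocyte and stem cell genes compared and lower in most lymphoid and granulocyte genes compared, while 0 of the 40 genes on the S phase and mitosis lists passed 1.5-fold in both suffixes. The median log2 ratio of the S phase list was 0.25 and -0.41 and that of the mitosis list -0.072 and -0.51; Mki67 stood at 234 and 92.1 CPM against 234 and 192. Of 9962 genes compared, 178 were higher (1.79%), 67 of them detected at the filter in a suffix only in the CD150-high CD48-high cells, and 88 lower (0.883%), 11 only in the other gate, with a median log2 ratio over all of 0.052 and 0.014. Without the doublet calls these counts were 189 and 98, of which 175 and 86 were in the first. The comparison uses the same CD150-high CD48-high cells as the one above, so the results of the 2 are not independent of each other.

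Of the megakaryocyte list, 11 of 13 genes compared were higher and 0 lower, with a median log2 ratio of 0.82 and 1.39. Of the 11, 6 met the detection filter in a suffix only through the CD150-high CD48-high cells, and 5 did so through both gates. Cd9, a surface tetraspanin gene, stood at 92.9 and 186 CPM against 35.4 and 63.3. Mmrn1, a protein of platelet granules, stood at 43.8 and 107 CPM against 8.01 and 11.3. Vwf (von Willebrand factor, which tethers platelets) differed between the libraries, at 6.51 CPM in suffix 1 and 98.2 in suffix 2, against 0.877 and 1.23. Against CD150-high CD48-low cells the same list was not higher as a group: of 14 genes compared, Itga2b and Plek were higher, Mmrn1 and Cavin2 lower, and the median log2 ratio was -0.58 and -0.066. Mmrn1 and Cavin2 were no longer past 1.5-fold once the doublet calls were left out. Pf4 was lower in suffix 1 (-0.49) and higher in suffix 2 (3.85), where it rested on the 2 cells above. Gp6, Tubb1 and Mpig6b, of late megakaryocytes, were at 0 UMIs in the CD150-high CD48-high cells of both libraries.

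Of the regulators of the megakaryocyte and red cell lineage, a smaller part was higher than in CD150-low CD48-high cells, with a median log2 ratio of 0.3 and 0.48. Gata2, Zfpm1 (the GATA cofactor FOG1), Gfi1b, Tal1 and Gata1 were the 5 of 15 factors compared that were higher than in CD150-low CD48-high cells. Gata2 stood at 115 and 158 CPM against 27.5 and 47.8, and Zfpm1 at 95.5 and 118 against 31.5 and 45.2. Gata1 met the detection filter only through the CD150-high CD48-high cells, and in suffix 2 it was not past 1.5-fold against either gate without its top cell. Against CD150-high CD48-low cells Gata1, under this limit, was the 1 of the 15 past 1.5-fold, and Gata2 had log2 ratios of -0.2 and -0.46. Of 10 red cell genes compared, Car2 and Aqp1 were higher than in CD150-low CD48-high cells, with Car2 at 780 and 744 CPM against 466 and 356, and none passed 1.5-fold against CD150-high CD48-low cells. Klf1, at 19 UMIs in suffix 1, and Epor, at 5.42 and 4.6 CPM, did not reach the detection filter.

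Of the stem cell list, 11 of 17 genes compared were higher than in CD150-low CD48-high cells and 0 lower, with a median log2 ratio of 0.78 and 1.11. Of the 11, 7 met the detection filter through both gates. Apoe, the apolipoprotein E gene, ranked first among all genes by the smaller of its 2 log2 ratios, at 356 and 682 CPM against 22.7 and 69.4, a ratio of 15.7 (13.5 to 18.3) and 9.83 (9.03 to 10.7). Tgm2, Gng11, Trim47, Aldh1a1 and Plxdc2 were also among the 12 furthest above. Ly6a, which encodes Sca-1, was among the 6 that did not pass 1.5-fold, with log2 ratios of -0.12 and -0.29.

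Lymphoid and granulocyte genes lay below the CD150-low CD48-high cells: 8 of 11 lymphoid and 8 of 11 granulocyte and monocyte genes compared were lower, 0 higher, and the same counts held without the doublet calls. Of the latter 8, 4 met the detection filter in a suffix only through the CD150-low CD48-high cells. Dntt was furthest below, at 84.6 and 31.5 CPM against 703 and 357. Ighm, the immunoglobulin heavy chain transcribed before rearrangement is complete, stood at 40.5 and 33 CPM (19.9 in suffix 2 without the doublet calls) against 597 and 285. Single CD150-low CD48-high cells had up to 16.1% and 10.8% of their UMIs on the lymphoid list, against 90th percentiles of 0.453% and 0.295%. How far such cells set the Ighm level of that gate was not tested. Irf8, a factor of monocytes and dendritic cells, stood at 10.1 and 4.6 CPM (2.65 without the doublet calls) against 73.8 and 74.3. Flt3 stood at 95.8 and 59.1 CPM against 314 and 195, and Mpo at 56.8 and 91.3 against 181 and 433. Elane, the neutrophil elastase gene, was at 0 UMIs in suffix 1 and 0.767 CPM in suffix 2 (1.33 without the doublet calls), against 76.9 and 42.1 CPM, and was found in too few cells to be compared. Prtn3, the related protease gene, was high in all gates and did not pass 1.5-fold, at 411 and 779 CPM against 577 and 759.9.

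**Figure D4:**
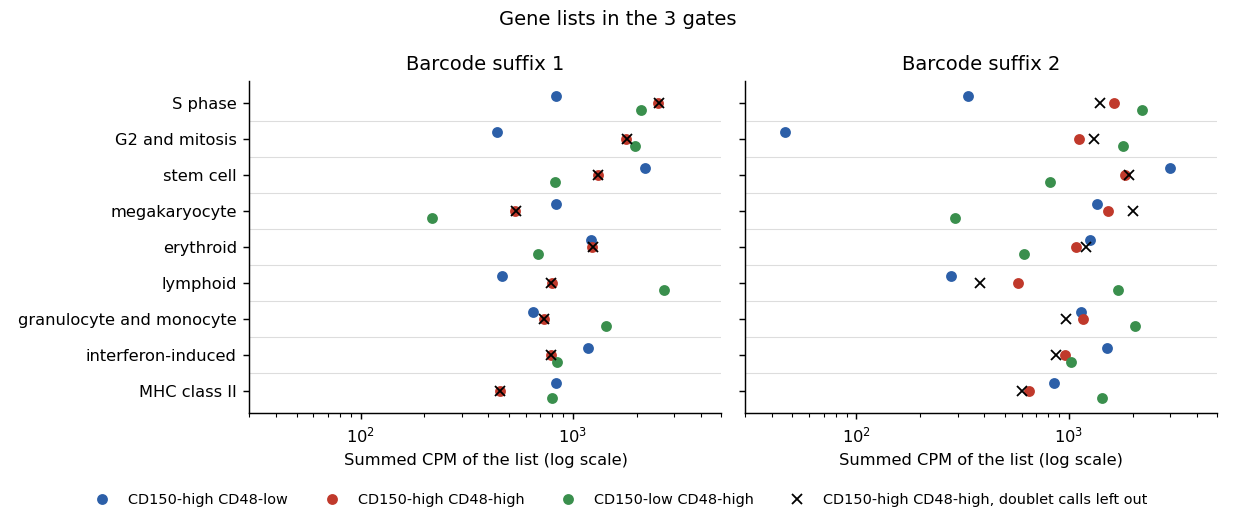
Summed CPM (log scale) of the genes of 9 lists in the 3 gates in suffix 1 (left) and suffix 2 (right), with crosses for CD150-high CD48-high cells without doublet calls. The S phase list of CD150-high CD48-high cells (2526 and 1628 CPM) lies within 1.5-fold of that of CD150-low CD48-high cells (2089 and 2197). Their mitosis list (1773 and 1118 CPM) is near in suffix 1 (1962) and lower in suffix 2 (1791). Their stem cell list (1306 and 1842 CPM) lies between the other gates.

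Of 9800 genes compared with both gates, 3 were higher than in either gate (Itga2b, Tuba8 and Gata1) and 1 was lower (Cd74). Gata1 and Tuba8 were compared only through the CD150-high CD48-high cells, the deepest of the 3 gates. A Gata1 UMI was held by 12.4% and 10% of these and by at most 0.919% of the cells of the other gates, and a Tuba8 UMI by 15.2% and 18% and by at most 8.48%. Their place in this count thus gives no support beyond their level. Itga2b was compared with CD150-low CD48-high cells of suffix 1, where 8.78% held a UMI of it, in the same way. Tuba8, an alpha-tubulin gene, stood at 10.5 and 16.1 CPM (26.5 in suffix 2 without the doublet calls) against 3.11 and 2.28 CPM in CD150-high CD48-low cells and 0.877 and 5.22 in CD150-low CD48-high cells. In suffix 2, 1 cell held 8 of the 21 Tuba8 UMIs and 1 cell 3 of the 8 Gata1 UMIs. As a check added after the data were seen, each gene was also read without its 1 or 2 top cells. Without 1 cell, Tuba8 was no longer past 1.5-fold against CD150-high CD48-low cells in suffix 1 (log2 ratio 0.49) or against CD150-low CD48-high cells in suffix 2 (0.41), and Gata1 against either gate in suffix 2 (0.43 and 0.41). Without 2 cells, Tuba8 was not past 1.5-fold against either gate in either suffix, nor were Gata1 and Itga2b in suffix 2. Cd74, the invariant chain of MHC class II, stood at 61.1 and 136 CPM, against 262 and 346 and against 218 and 397. Its ratio was 0.234 (0.196 to 0.278) and 0.393 (0.335 to 0.459) to CD150-high CD48-low cells, and 0.28 (0.238 to 0.328) and 0.342 (0.293 to 0.397) to CD150-low CD48-high cells. In suffix 1 the level in CD150-low CD48-high cells rested on few cells: 10 of the 444 held 1514 of the 1991 Cd74 UMIs, and without these 10 the level there was 53.6 CPM and the log2 ratio 0.16. In the other 3 comparisons the log2 ratio stayed between -1.36 and -0.91 without the 10 top cells of the other gate. In thinned cells a Cd74 UMI was held by 25.7% of the CD150-high CD48-high cells in suffix 1 and 44% in suffix 2, against 49.4% and 50.8% of CD150-high CD48-low cells and 23.7% and 52.8% of CD150-low CD48-high cells. The direction of Cd74 depended on the choice of gates as well. Its log2 ratio to CD150-high CD48-low cells in suffix 1 was 0.034 with percentiles over both suffixes (77 cells) and 1.2 with the stricter cell filter (11 cells), and its log2 ratios to the 2 gates in suffix 2 were 0.47 and 0.16 with tags divided by unmapped tags (7 cells). Of the MHC class II genes, H2-Aa, H2-Ab1 and H2-Eb1 were also lower than in CD150-low CD48-high cells. Without the doublet calls 7 genes were higher and 2 lower than in both gates, which added the water channel gene Aqp1 above and H2-Aa below. The 3 genes above both gates lay below both in suffix 2 on another cut. With CD48-high set above the 75th percentile, 10 cells were left in suffix 2, 8 of them doublet calls, and the 2 cells richest in Itga2b were not among them. There the log2 ratios in suffix 2 were -0.26 and -0.36 for Itga2b, -0.054 and -0.074 for Gata1 (0 UMIs) and -0.296 and -0.62 for Tuba8.

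For genes that separated the 2 other gates, the place of the CD150-high CD48-high cells differed by suffix. Of 657 genes past 1.5-fold higher in CD150-low CD48-high than in CD150-high CD48-low cells in both suffixes, 389 lay between the gates in both, and on a scale from 0 at the CD150-high CD48-low level to 1 at the CD150-low CD48-high level their median position was 0.89 in suffix 1 and 0.67 in suffix 2. In suffix 1, 400 of the 657 lay between and 252 beyond the CD150-low CD48-high level, and in suffix 2, 634 lay between and 14 beyond it. Of 566 genes higher in CD150-high CD48-low cells, 475 lay between in both, at a median position of 0.56 and 0.35. In both sets of genes, the cells of suffix 1 stood nearer to the CD150-low CD48-high cells than those of suffix 2 did. These positions keep the doublet calls, 16 of the 50 cells in suffix 2, and were not recomputed without them. A droplet with a cell of each other gate would also lie between, and the part of such droplets was not tested.

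Levels within the CD150-high cells moved with the CD48 tag. From the lowest to the highest CD48 quartile, Cd48 stood at 0.888, 10.6, 31.5 and 114 CPM in suffix 1 and at 1.52, 2.55, 15 and 99.8 in suffix 2. Mllt3 stood at 200.2, 116, 78.8 and 43.9 CPM in suffix 1 and at 283, 221, 182 and 116 in suffix 2. Mki67 reached its full level early in suffix 1, at 37.7, 212, 225 and 241 CPM, and peaked in the third quartile in suffix 2, at 2.66, 26.1, 109 and 48.5. Flt3 in suffix 2 stood at 2.09, 9.55, 22.5 and 151 CPM, and Mpo at 1.71, 3.18, 27.9 and 251, with the highest level in the 10 cells of the highest quartile. Of these 10 cells 8 were doublet calls, as were 8 of the 40 in the third quartile, and the 2 cells not called had 199.8 CPM of Flt3, 14.3 of Mpo, 14.3 of Mki67 and 42.8 of Cd48. In the 32 cells of the third quartile that were not called, Cd48 stood at 5.85 CPM and Flt3 at 10.2. The third and the highest quartile form the gate. Depth also differed between them, with medians of 22235 and 31426 UMIs in suffix 1 and 21088 and 35938 in suffix 2. At the CD48 cut itself the order could differ. The 20 cells just inside had 85 and 30.8 CPM of Mki67, against 298 and 117 in the 20 just outside. In suffix 2, 1 cell held all 11 of these UMIs inside and 2 cells all 43 outside. Procr stood at 97.5 and 173 CPM inside against 70.1 and 223 outside, and Mllt3 at 52.5 and 274 against 120 and 229. Cd48 stood at 20 and 5.59 CPM inside against 7.51 and 2.72 outside.

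**Figure D5:**
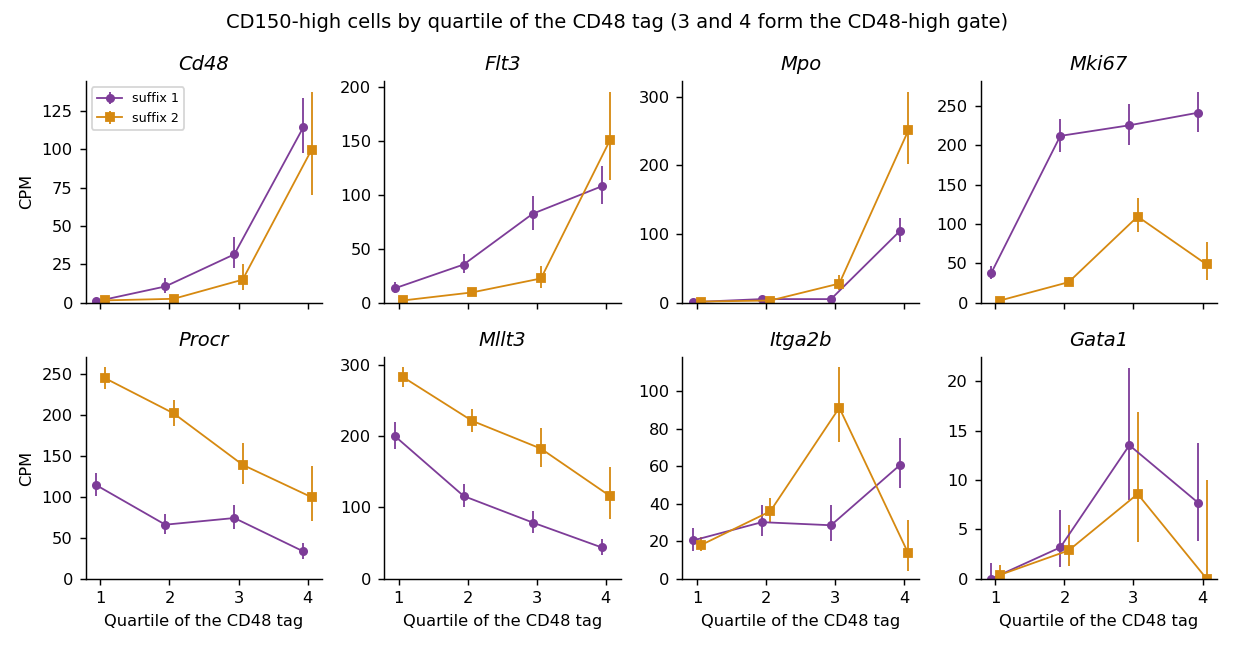
CPM of 8 genes (vertical, from 0) in CD150-high cells by quartile of the CD48 tag (horizontal), for suffix 1 (circles) and suffix 2 (squares), with 95% exact Poisson intervals for counting error. Cd48, Flt3 and Mpo are highest in the highest quartile, Procr and Mllt3 in the lowest, and Itga2b of suffix 2 is highest in the third, where 2 cells hold 53 of its 85 UMIs. In suffix 2, 8 of the 10 cells of the highest quartile are doublet calls.

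Among the CD48-high cells, levels moved with the CD150 tag, downwards for Dntt and upwards for Apoe and Gata2. Dntt stood at 873, 529.8, 223 and 84.6 CPM from the lowest to the highest CD150 quartile in suffix 1 and at 442, 258, 79.9 and 31.5 in suffix 2. Apoe stood at 15, 30.6, 118 and 356 CPM in suffix 1 and at 48, 94.4, 477 and 682 in suffix 2. Gata2 stood at 28.2, 26.8, 58 and 115 CPM in suffix 1 and at 41, 55.8, 136 and 158 in suffix 2. The 20 cells just inside the CD150 cut of suffix 1 (40 to 55 tags) had 36.5 CPM of Itga2b and 65.3 of Procr, and the 20 just outside (28 to 39 tags) had 27.6 and 29.7. In suffix 2 the cells just inside (412 to 599 tags) had 123 CPM of Itga2b and 119 of Procr, and those just outside (271 to 401 tags) had 76.4 and 68.5. The 2 cells richest in Itga2b held 53 of the 59 UMIs just inside, where 14.6 CPM remained without them. Just outside, 37.6 CPM remained without its own 2 top cells, so the order of Itga2b turned, while Procr without its 2 top cells stood at 96.8 CPM inside and 47.1 outside.

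The CD150-high CD48-high cells differed among themselves. The values here keep the doublet calls, 16 of the 50 cells in suffix 2, and were not repeated without them. The share of a cell's UMIs on the stem cell list ran from 0.00532% to 0.332% in suffix 1 and from 0.0624% to 0.373% in suffix 2, with medians of 0.13% and 0.203%. Across the cells of a library it was lower where the S phase share was higher (Spearman's rho -0.55 over 105 cells and -0.75 over 50) and where the mitosis share was higher (-0.54 and -0.67). These are descriptions over cells of 1 library, whose shares have a common denominator. Stem cell and megakaryocyte shares went together weakly (0.24 and 0.3). The lymphoid share tracked the doublet score in both libraries (0.63 and 0.77), although only 1 cell of suffix 1 was called. In thinned cells, Gata1 was found with Mpo, Flt3 or Dntt in 0 cells, where the product of the single shares gives 1.75 and 0.78 cells for Flt3, so that an absence of joint cells could not be shown at this depth. Itga2b and Flt3 were found together in 6 of 105 thinned cells in suffix 1, where the product of their shares gives 10.5, and in 2 of 50 in suffix 2, where it gives 3.12.

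Tags and genes that the gate did not use add to this picture. CLCA3A1 tags, read through a PE-directed antibody, had a median of 31 and 276.5 in the CD150-high CD48-high cells, against 25 and 214 in CD150-high CD48-low cells and 5 and 9 in CD150-low CD48-high cells. Tags that mapped to no antibody had medians of 72 and 47.5, against 31 and 40 and against 57 and 28, so tags of no antibody were more numerous in the gate as well, as were UMIs per cell, and the part of either in the gate's membership was not tested. Of the other SLAM family genes compared, Cd84 and Ly9 did not pass 1.5-fold against either gate. Of 16 cytokine receptors compared, Flt3 alone was higher than in CD150-high CD48-low cells, while Flt3 and Il1r1 were lower than in CD150-low CD48-high cells.

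Markers of mature neutrophils and macrophages were near 0. The 8 genes of neutrophils summed to 14.5 and 3.07 CPM (5.31 in suffix 2 without the doublet calls) in the CD150-high CD48-high cells, and the 8 of macrophages and dendritic cells to 14.5 and 4.6 CPM. The T and NK list summed to 144 and 140 CPM, most of it Nkg7 (142 and 111 CPM), a gene of cytotoxic granules that CD150-low CD48-high cells also held at 135 and 240.5 CPM. The B and plasma list summed to 47.4 and 84.4 CPM, against 1031 and 4178 in CD150-low CD48-high cells, where Igkc, the kappa light chain, made up 863 and 4114 CPM. The red cell and platelet list summed to 62.9 and 444 CPM (738 in suffix 2 without the doublet calls), and Pf4 was 412 of the 444, while 4 of its 8 genes were at 0 in suffix 2. The endothelium and stroma list summed to 37.6 and 46 CPM.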

How the data were processed

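RNA and antibody tags were measured in 1 library of LSK cells per age. The deposited matrix holds UMI counts that the authors made with Cell Ranger 3.1.0 count and then combined with aggr, which evens depth between libraries; the labels name the mouse builds mm10 and GRCm38. The tag values were counted with CITE-seq-Count and deposited by the authors on a log10 scale, which was undone here. Of 4688 cells, 4068 had under 10% mitochondrial UMIs and over 1500 genes, and 3986 of these had tags, with 27073429 UMIs in suffix 1 and 43434366 in suffix 2.

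Gates were cut at tag percentiles within a suffix, and the CD150-low cut at the 50th was a choice made here. UMIs were summed per gate and suffix, scaled to CPM, and compared as log2 ratios with 10 CPM added. A gene counted as higher or lower past 1.5-fold in both suffixes. Intervals are exact at the 95% level and cover counting error only. A gate at 0 UMIs was given a limit of 3 UMIs. Genes named outside the lists were the 12 furthest in each direction by the smaller of the 2 log2 ratios. The members and lists were chosen with earlier results of these data known, and the interferon-induced and MHC class II lists after values were seen. Cells were thinned to 8000 UMIs for shares. Doublets were called per suffix with Scrublet (scanpy 1.11.5, expected rate 0.06) and kept in the main values. Python 3.11.15, numpy 2.4.6, scipy 1.17.1 and pandas 2.3.3 were used, and the comparison was tested on simulated data. Of the 313 list symbols fixed, 312 were in the matrix. Results for 1 gene are not reported here.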

Additional observations from a re-analysis of the deposited data

Results flagged for a closer look

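The log2 ratios of 3 genes between CD150-high CD48-high and CD150-low CD48-high cells lay past 1.5-fold in opposite directions in the 2 suffixes. In each case the difference between the suffixes was not tested, as each suffix is 1 library. Cpa3, a mast cell carboxypeptidase, had log2 ratios of 1.31 in suffix 1 and -1.11 in suffix 2, a difference of 2.42. It stood at 19.2 CPM in suffix 1 (53 UMIs in 18 cells) against 1.75 CPM, and at 3.07 CPM in suffix 2 (4 UMIs in 4 cells) against 18.2 CPM. Sdc4, a cell surface proteoglycan gene, had log2 ratios of -0.61 and 0.66, a difference of -1.28, with 18 and 19 UMIs in the CD150-high CD48-high cells. Pgr, the progesterone receptor gene, had log2 ratios of -0.91 and 0.67, a difference of -1.58, with 29 and 32 UMIs. Without the doublet calls the ratios in suffix 2 were -1.01 for Cpa3, 0.94 for Sdc4 and 0.7 for Pgr. Sdc4 and Pgr were picked out after their values were seen.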

How the results depend on the processing

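Of 1738 single values recomputed under 15 other settings (19 genes and 10 lists, per suffix and gate), 1259 stayed within the counting intervals of the gene or, for a list, within 1.5-fold, 440 moved further, and 39 that had been past 1.5-fold changed sign. Of 60 counts of genes, 38 stayed within 1.5 times. With 1 CPM added, 732 genes were higher and 301 lower than in CD150-high CD48-low cells, and 473 and 157 than in CD150-low CD48-high cells. With 50 CPM added these were 137, 31, 29 and 25, and at 2-fold 165, 15, 41 and 24. With CD48-high above the 75th percentile (46 and 10 cells), 257 were lower than in CD150-high CD48-low cells, and with percentiles over both suffixes (77 and 44 cells) 260 were. Dividing tags by unmapped tags (60 and 7 cells) left 89 higher. Keeping cells over 2500 genes and under 5% mitochondrial UMIs (11 and 7 cells) gave 246, 481, 367 and 288. Among cells at or under the median mitosis share (27 and 21 cells), 122 were higher and 53 lower than in CD150-high CD48-low cells, and 270 higher than in CD150-low CD48-high cells. That setting leaves out the cells with more mitosis UMIs, so it acts on the mitosis genes directly. The fewer cells of these gates make low genes less certain, and other causes of the changes were not tested.

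Reversed log2 ratios in the same settings were as follows. CD150-high from the 90th percentile gave -0.34 for Tuba8 in suffix 2 against CD150-low CD48-high cells. CD48-high above the 75th percentile gave, in suffix 2, Gata1 -0.054, Itga2b -0.26, Pf4 -0.31 and Tuba8 -0.296 against CD150-high CD48-low cells, and Gata1 -0.074, Itga2b -0.36 and Tuba8 -0.62 against CD150-low CD48-high cells. Percentiles over both suffixes gave Cd74 0.034 and the MHC class II list 0.014 in suffix 1 against CD150-high CD48-low cells. Tags over unmapped tags gave, against the same gate, Mki67 -0.75 and the mitosis list -0.74 in suffix 1, and Flt3 -0.403, Dntt -0.23 and Cd74 0.47 in suffix 2. Against CD150-low CD48-high cells it gave Mki67 0.22, Cd74 0.16 and the MHC class II list 0.019 in suffix 2. The stricter cell filter gave, against CD150-high CD48-low cells, Mki67 -0.72, Cd74 1.2, the mitosis list -0.57 and the MHC class II list 0.33 in suffix 1, and Gata1 -0.59, Pf4 -5.04, Apoe 0.23, Mki67 -1.17, Tuba8 -0.59 and the mitosis list -0.65 in suffix 2. Against CD150-low CD48-high cells it gave Cd48 0.23 and Mllt3 -0.31 in suffix 1 and Gata1 -0.078 in suffix 2. A mitosis share at or under the median gave, against CD150-high CD48-low cells, Procr 0.11, Mki67 -0.089 and Tuba8 -0.33 in suffix 1, and Gata1 -0.034, Pf4 -0.36 and Mki67 -0.067 in suffix 2. Against CD150-low CD48-high cells it gave Tuba8 -0.0498 in suffix 1 and Gata1 -0.031 in suffix 2. Mki67 is on the list that chose the cells of this setting, so its values there follow from the choice. In settings chosen after seeing the data, leaving the 1 or 2 cells with most UMIs of the gene out of the gate changed no direction for Itga2b, Tuba8 and Gata1, but of 12 log2 ratios 8 stayed past 1.5-fold without 1 cell and 4 without 2. Cd74, lower in the gate, was read without the 10 top cells of the other gate instead, which reversed its log2 ratio to 0.16 in suffix 1 against CD150-low CD48-high cells. The centred log ratio of the tags left 11 and 1 cells and was given no value. No paired analysis was possible because the labels give no replicate numbers.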

Other observations

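Mast cell, basophil and eosinophil genes were thinly represented in the CD150-high CD48-high cells: of 16, 7 were at 0 UMIs in suffix 1 and 11 in suffix 2. Gata2, which also serves the megakaryocyte lineage, was the only 1 of the 3 compared past 1.5-fold in the same direction in both suffixes against CD150-low CD48-high cells. Cpa3 was past 1.5-fold in opposite directions, with log2 ratios of 1.31 and -1.11. Thinned to the same 8000 UMIs, the CD150-high CD48-high cells had a median of 2909 and 2844 genes per cell, against 2822 and 2712 in CD150-high CD48-low cells and 2822 and 2799 in CD150-low CD48-high cells.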
